A study of Mus musculus with 7 samples.

Results

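The 8 genes described here mark muscle stem cells or drive the myogenic programme: Pax7, Myf5, Myod1, Myog, Myf6, Cdh15, Megf10 and Vcam1. They were chosen by gene symbol from what is known of them, when earlier results of these data were known. All 8 were found among the 29869 gene symbols of the table. Each had enough reads to be tested, among 14033 tested genes. Transcripts were counted by RNA sequencing in whole soleus, a hindlimb muscle, of mice 60 days old (P60), with 4 mdx-labelled libraries (animals 358, 361, 373 and 375, replicates 1 to 4) and 3 labelled mdx/Runx1f/f (animals 359, 363 and 374, replicates 1 to 3). Both groups share mdx, a mutation of the dystrophin gene, which makes these animals a model of Duchenne muscular dystrophy. The label of the second group also names floxed alleles of Runx1, which encodes a transcription factor. A floxed allele is deleted only where a Cre recombinase acts, and the labels give no Cre driver and do not say which part of Runx1 is floxed.

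The labels conflict, and every direction given here rests on the sample titles. The description field ties most animal numbers to another sample, and the series design counts 3 mdx and 4 mdx/Runx1f/f muscles. Runx1 itself had 274, 273, 235 and 201 normalised counts in the mdx-labelled libraries and 919, 925 and 596 in those labelled mdx/Runx1f/f, a log2 fold change of 1.74 (SE 0.18; Benjamini-Hochberg adjusted p = 0.00795 in the quasi-likelihood test of edgeR). The targeted gene was thus higher in the group whose label names its floxed allele. Gene counts do not show whether a deleted part of the gene was read. For this reason a group is named here only by its label. The labels do not settle which group carries which genotype, and an exchange of the groups would turn every sign given. Library totals lay between 16218306 and 20847902 counts, and a normalised count is a read count divided by the authors' size factor of its library.

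Skeletal muscle repairs itself from satellite cells, stem cells that lie between a fibre and its basement membrane and express the transcription factor Pax7. When activated they express the myogenic regulatory factors, 4 basic helix-loop-helix proteins that bind the E-box: Myf5 and Myod1 set the myogenic fate, Myog (myogenin) drives differentiation, and Myf6 (Mrf4) is also the factor that mature fibres express most. Of the surface proteins, M-cadherin (Cdh15) joins satellite cells to fibres, Megf10 is a receptor of satellite cells, and Vcam1 is an adhesion molecule that binds integrin α4β1. Dystrophin-deficient fibres degenerate and regenerate repeatedly, so that the programme is active in mdx muscle.

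Myog and Myf5 had the largest and the most negative log2 difference between the groups among the 8 genes, and the 250 bases before their start sites are shown for that reason. The sequences are those of RefSeq on GRCm38.p6, a later build than the mm9 genome of the counts, at chr1:134289754-134290003 on the plus strand for Myog and chr10:107486135-107486384 on the minus strand for Myf5. Both are written 5′ to 3′ on the gene's own strand, and capitals mark the letters searched for on both strands: the E-box CANNTG in Myog and the Runx letters TGTGGT or TGCGGT in Myf5.
Myog upstream: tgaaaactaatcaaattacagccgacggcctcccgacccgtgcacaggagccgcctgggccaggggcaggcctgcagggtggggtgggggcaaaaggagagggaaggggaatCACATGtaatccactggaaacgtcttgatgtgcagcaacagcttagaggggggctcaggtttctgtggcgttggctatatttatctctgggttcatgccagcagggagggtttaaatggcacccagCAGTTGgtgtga
Myf5 upstream: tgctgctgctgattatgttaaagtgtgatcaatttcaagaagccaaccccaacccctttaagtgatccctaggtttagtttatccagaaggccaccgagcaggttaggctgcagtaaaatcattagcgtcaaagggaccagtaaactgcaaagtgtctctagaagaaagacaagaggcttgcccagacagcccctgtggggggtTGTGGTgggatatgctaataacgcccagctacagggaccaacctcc
The Myog stretch holds 2 E-boxes, CACATG at positions -138 to -133 and CAGTTG at -12 to -7 relative to the start. In the Myf5 stretch no E-box was matched and TGTGGT stands once, at -46 to -41. RefSeq upstream sequence was at hand for 4 of the 8 genes. Of the other 2, Cdh15 has 3 E-boxes and 1 stretch of Runx letters (as ACCACA on its own strand, at -38 to -33), and Pax7 matched none of these motifs. The MEF2 motif as searched was matched in none of the 4, which does not show that variants of its letters are absent. Among 32851 upstream stretches of the same length, 66.2% hold an E-box, 18.6% the Runx letters and 1.69% the MEF2 motif. Such matches describe letters and are not binding sites measured here.

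No gene of the 8 passed the test between the groups. The quasi-likelihood test of edgeR called 6.95% of the 14033 genes tested (Benjamini-Hochberg adjusted p below 0.05), with 5.10% higher in the mdx/Runx1f/f-labelled libraries and 1.85% lower, against 0 of 8 here. The limma-voom model called 0 of 8 and 7.30% of all genes. At an unadjusted p below 0.05 edgeR had 3 of the 8 (Myod1, Myog and Vcam1, each higher in the mdx/Runx1f/f-labelled libraries), against 29.5% of all genes in either direction and 17.1% in that direction. DESeq2 called Myog and Vcam1, 2 of 8, where it called 17.8% of all genes. In the authors' deposited table the same 2 genes have an adjusted p below 0.05, as have 19.0% of all genes there. The log2 fold change was above 0 for 7 of the 8, with a median of 0.18 beside -0.0016 over all tested genes. These counts are read beside the share of all genes, and whether the 8 as a set differ from all genes was not tested.

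**Figure D1:**
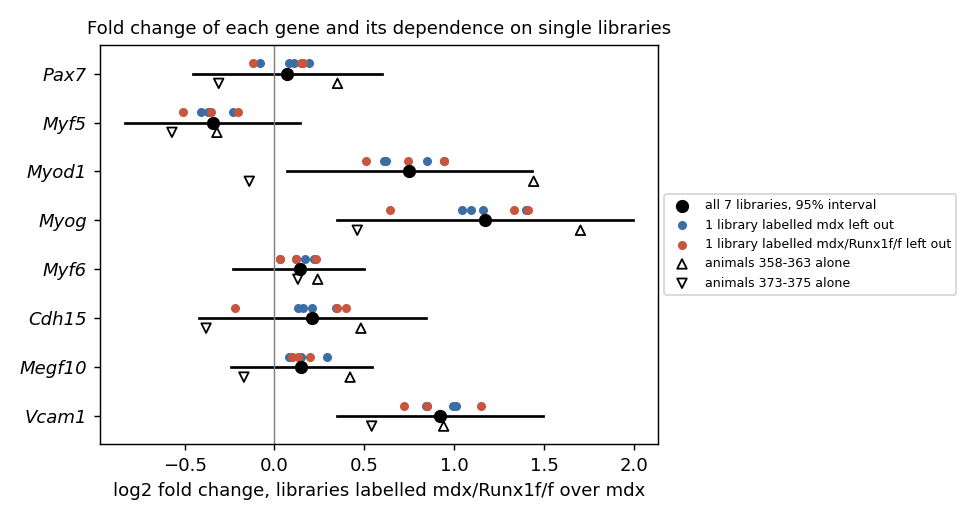
Log2 fold change of each of the 8 genes, mdx/Runx1f/f over mdx, over all 7 libraries with its 95% interval from edgeR (black points and bars), with 1 library left out (small coloured points, by the group of that library) and within each animal number series (open triangles). The black intervals of Myod1, Myog and Vcam1 lie above 0 and those of the other 5 genes span it.

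Pax7, the factor that defines satellite cells, did not differ between the groups beyond the spread of the libraries. It had 86.6, 137, 156 and 127 normalised counts in the mdx-labelled libraries and 164, 119.8 and 114 in those labelled mdx/Runx1f/f, or 127 ± 29.1 (SD, n = 4) against 132 ± 27.1 (SD, n = 3). Both the lowest library (mdx replicate 1) and the highest (mdx/Runx1f/f replicate 1) are first replicates, and the ranges overlap. The log2 fold change was 0.07 (SE 0.23, 95% interval -0.45 to 0.60; edgeR adjusted p = 0.856). In whole muscle, fewer cells of a type and less RNA per cell cannot be told apart, so Pax7 counts are not counts of satellite cells.

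Myf5, which sets myogenic fate together with Myod1, was the member with a negative fold change. Its normalised counts were 86.6, 109, 82.8 and 76.0 in the mdx-labelled libraries and 84.2, 70.5 and 53.1 in the others. The 2 groups overlap, since mdx/Runx1f/f replicate 1 lies above mdx replicates 3 and 4. Means were 88.5 ± 14.1 (SD, n = 4) and 69.3 ± 15.6 (SD, n = 3), with a log2 fold change of -0.34 (SE 0.21, 95% interval -0.83 to 0.14; edgeR adjusted p = 0.310). It was at -0.51 without mdx/Runx1f/f replicate 1, at -0.20 without replicate 3 of that group, and at -0.23 without mdx replicate 2. Myf5 and Myf6 are neighbours in the genome, with 0 genes starting between them in the RefSeq gene table.

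Myod1, the other determination factor, ran from 208 to 639.5 normalised counts. The mdx-labelled libraries held 208, 215, 406 and 358, and those labelled mdx/Runx1f/f 639.5, 503 and 345. One library, mdx/Runx1f/f replicate 3, lies within the mdx range, below mdx replicates 3 and 4. The means of 297 ± 101 (SD, n = 4) and 496 ± 147 (SD, n = 3) gave a log2 fold change of 0.75 (SE 0.30, 95% interval 0.07 to 1.43; unadjusted p = 0.0352, adjusted p = 0.140 by edgeR's quasi-likelihood test).

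Animals fall into a lower and a higher number series, and Myod1 went different ways in them. Among animals 358 to 363 both mdx/Runx1f/f-labelled libraries were above both labelled mdx, and the log2 fold change was 1.44. Among animals 373 to 375 the mdx/Runx1f/f-labelled library was below both labelled mdx, and the value was -0.14. The interaction of group with number series, a test added after these values were seen, was -1.58 (SE 0.26; unadjusted p = 0.000788, adjusted p = 0.823 by edgeR's quasi-likelihood test) for Myod1. It was called for 0 of the 8 genes and for 0% of the 14033 genes tested, of which 826 had an unadjusted p below 0.05, Myod1 alone among the 8. Fitted in the same way, the log2 fold changes among animals 358 to 363 were 1.70 for Myog, 0.94 for Vcam1, 0.48 for Cdh15, 0.42 for Megf10, 0.35 for Pax7, 0.24 for Myf6 and -0.32 for Myf5. Among animals 373 to 375 they were 0.46, 0.54, -0.38, -0.17, -0.31, 0.13 and -0.57 in the same order of genes. Myog, Vcam1, Myf6 and Myf5 thus had the same sign in both series, and neither fit called any of the 8 genes. The fit of animals 358 to 363 called 0% of 14051 genes, with 2669 of them at an unadjusted p below 0.05 (Myod1, Myog and Vcam1 of the 8). The fit of animals 373 to 375, with 1 mdx/Runx1f/f-labelled library, called 12.6% of 14278 genes, and Vcam1 alone of the 8 had an unadjusted p below 0.05. The labels do not say what the number series stand for.

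Myog, the differentiation factor, had the widest span of the 8 genes, 4.90-fold from its lowest to its highest library. Its normalised counts were 324, 370, 645 and 437 in the mdx-labelled libraries and 1590, 640.1 and 739.6 in those labelled mdx/Runx1f/f. Replicate 1 of the latter group stands far above the other 6 libraries, and its replicate 2 lies just below mdx replicate 3, so that the groups overlap by that pair. Means were 444 ± 142 (SD, n = 4) and 990.1 ± 522 (SD, n = 3), and edgeR gave a log2 fold change of 1.17 (SE 0.36, 95% interval 0.35 to 1.99; edgeR adjusted p = 0.0798). DESeq2 gave an adjusted p of 0.0139 for a log2 fold change of 1.16, and the authors' deposited table lists 0.92 with an adjusted p of 0.0208. Leaving out mdx/Runx1f/f replicate 1 brought it to 0.64 by edgeR (adjusted p = 0.167), and over all 7 fits that left out a library the adjusted p lay between 0.0822 and 0.167.

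**Figure D2:**
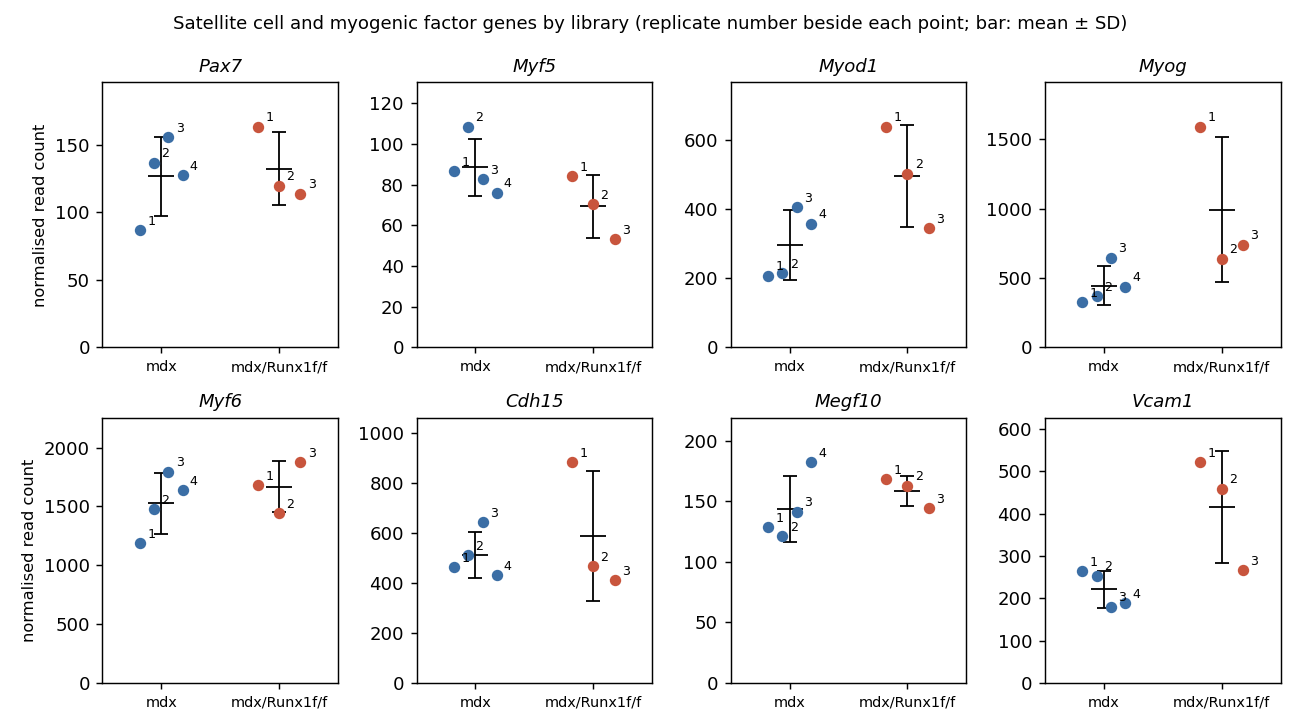
Normalised counts of the 8 genes in each library (points, labelled with the replicate number) for the 4 mdx-labelled libraries and the 3 labelled mdx/Runx1f/f, with the mean and SD of each group (black bars), 1 panel per gene and each vertical axis from 0. Vcam1 is the gene whose groups do not overlap, and mdx/Runx1f/f replicate 1 is the highest library in 5 panels.

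Myf6, the factor of mature fibres, differed little. Its counts were the largest of the 8 genes, with normalised counts of 1189, 1479, 1797 and 1640 in the mdx-labelled libraries and 1681, 1443 and 1879 in the others. The 2 groups overlap through most of their range. With means of 1526 ± 260 (SD, n = 4) and 1667 ± 219 (SD, n = 3), edgeR gave a log2 fold change of 0.14 (SE 0.16, 95% interval -0.23 to 0.50; edgeR adjusted p = 0.596). Leaving out 1 library moved it between 0.03 (without mdx replicate 1 or without mdx/Runx1f/f replicate 3) and 0.23 (without mdx/Runx1f/f replicate 2), with 0.22 without mdx replicate 3.

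Cdh15, the cadherin between satellite cell and fibre, had 464, 511, 643 and 431 normalised counts in the mdx-labelled libraries and 884, 468 and 409.9 in those labelled mdx/Runx1f/f. Replicate 1 of the latter is the highest library and its replicate 3 the lowest, so that this group spans the whole range of the other. The log2 fold change was 0.21 (SE 0.27, 95% interval -0.42 to 0.84; edgeR adjusted p = 0.643), with means of 512 ± 92.9 (SD, n = 4) and 587 ± 259 (SD, n = 3). Without mdx/Runx1f/f replicate 1 it was -0.22 (edgeR adjusted p = 0.430). Pax7 behaved likewise, at -0.12 without that library (edgeR adjusted p = 0.783).

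Megf10, the satellite cell receptor, had the narrowest span of the 8 genes, 1.51-fold from lowest to highest library. Normalised counts were 129, 121, 141 and 183 in the mdx-labelled libraries and 168, 163 and 144 in the others. All 3 mdx/Runx1f/f-labelled libraries lie inside the mdx range. The log2 fold change was 0.15 (SE 0.17, 95% interval -0.24 to 0.54; edgeR adjusted p = 0.585), with means of 144 ± 27.4 (SD, n = 4) and 159 ± 12.7 (SD, n = 3). It was at 0.08 without mdx replicate 2, at 0.10 without mdx replicate 1 or without mdx/Runx1f/f replicate 1, and at 0.29 without mdx replicate 4.

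Vcam1, the adhesion molecule, was the gene of the 8 whose groups did not overlap, as was so for 27.4% of all tested genes. Normalised counts were 264, 253, 180.0 and 188 in the mdx-labelled libraries and 522, 459 and 267 in those labelled mdx/Runx1f/f. The groups are parted by a narrow gap, from 264 in mdx replicate 1 to 267 in mdx/Runx1f/f replicate 3. Means were 221 ± 43.5 (SD, n = 4) and 416 ± 133 (SD, n = 3), with a log2 fold change of 0.92 (SE 0.25, 95% interval 0.35 to 1.49; edgeR adjusted p = 0.0600). Here too DESeq2 (adjusted p = 0.00930) and the authors' deposited table (log2 fold change 0.81, adjusted p = 0.0106) passed the threshold that edgeR missed. Vcam1 was called by edgeR in 2 other fits. It was at 1.15 without mdx/Runx1f/f replicate 3 (edgeR adjusted p = 0.0339), in a fit that called 4.66% of 14258 genes. With the animal number series as a term it was 0.78 (edgeR adjusted p = 0.0130), in a fit that called 13% of all genes. Over the 7 fits that left out a library its edgeR adjusted p lay between 0.0339 and 0.175.

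Vcam1 is also made by endothelium, stromal and immune cells, and the stromal markers were higher in each mdx/Runx1f/f-labelled library than in each mdx-labelled one. Of 8 tested genes of fibro-adipogenic progenitors, the stromal cells of muscle, 7 rose. Genes of a list are said to rise or fall only where edgeR called them. The summed normalised count of the 8 was 19035 to 28392 in the mdx-labelled libraries and 58128 to 68466 in the others. Among the 7 were Col1a1, a collagen chain gene, at a log2 fold change of 1.47 and Dcn, a proteoglycan gene, at 1.12 (edgeR adjusted p = 0.0187 and 0.0107). Of 9 macrophage genes 2 rose, with a median log2 fold change of 1.61, and DESeq2 called 5. The unadjusted p of edgeR was below 0.05 for 7 of the 9, beside 29.5% of all tested genes. The groups did not overlap for 5 of the 9, beside 27.4% of all tested genes. The sums were 2826 to 12135 against 11472 to 32121, and overlapped through mdx replicate 1 and mdx/Runx1f/f replicate 3 alone. Of 11 endothelial genes 1 rose, Vwf, which encodes von Willebrand factor, and the sums overlapped, at 12428 to 21891 against 14891 to 19860, with a median log2 fold change of -0.02. The libraries that hold the highest and second highest Vcam1 counts are those labelled mdx/Runx1f/f replicates 1 and 2, whose sums of macrophage genes are 15338 and 32121, the 2 highest. No gene of these lists was at 0 in all libraries. Their part in the result for Vcam1 was not tested.

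The library labelled mdx/Runx1f/f replicate 1 had the highest normalised count of 5 of the 8 genes, Pax7, Myod1, Myog, Cdh15 and Vcam1, and the library labelled mdx replicate 1 the lowest of 4, Pax7, Myod1, Myog and Myf6. The former library also stood apart in fibre genes. The summed normalised count of 9 fast-fibre genes was 1394180 there and 493723 to 860505 in the other 6 libraries. Of these 9 genes Myh2 alone had its lowest count there, at 65540, and each of the others its highest. The summed count of 8 slow-fibre genes was lowest there, at 141966. It also parted the groups, with 141966 to 497302 in the mdx/Runx1f/f-labelled libraries and 529906 to 897943 in the mdx-labelled ones. The slow-fibre genes had a median log2 fold change of -1.03, and 5 of the 8 did not overlap between the groups, beside 27.4% of all tested genes. Between the groups edgeR called 0 of these 17 genes, limma-voom 0 and DESeq2 4, and the unadjusted p of edgeR was below 0.05 for 7. The part of the fibre makeup in the counts of the 8 genes was not tested.

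Measured per kilobase of exon, to allow levels of different genes to be compared, the mean levels of the 8 genes had the same order in both groups. In the mdx-labelled libraries, Myf6 led with 1208 ± 206 normalised counts per kilobase (SD, n = 4), followed by Myog with 297 ± 94.8, Myod1 with 160 ± 54.0 and Cdh15 with 158 ± 28.6. Then came Vcam1 with 44.4 ± 8.72, Myf5 with 42.5 ± 6.77, Pax7 with 21.6 ± 4.97 and Megf10 with 19.1 ± 3.64. Library ranges of neighbours in this order overlapped for Myog and Myod1, Myod1 and Cdh15, Vcam1 and Myf5, and Pax7 and Megf10. In the mdx/Runx1f/f-labelled libraries the order was Myf6 at 1320 ± 173 (SD, n = 3), Myog at 662 ± 349, Myod1 at 266 ± 79.2, Cdh15 at 181 ± 79.6 and Vcam1 at 83.5 ± 26.7. The last 3 were Myf5 at 33.3 ± 7.48, Pax7 at 22.6 ± 4.63 and Megf10 at 21.1 ± 1.69. There Myog and Myod1 no longer overlapped, nor did Vcam1 and Myf5, while Myod1 still overlapped with Cdh15, and Pax7 with both Myf5 and Megf10. The lengths are those of a later annotation than the authors may have used, so the order depends on which exons their counting covered.

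The balance between members was read as the ratio of their raw counts within a library, which needs no normalisation between libraries. Of 10 ratios computed, 4 did not overlap between the groups, and they are given as a description with no test. Per Pax7 count, Myog stood at 3.74, 2.70, 4.14 and 3.43 in the mdx-labelled libraries and at 9.72, 5.34 and 6.50 in those labelled mdx/Runx1f/f. Per Pax7 count, Myod1 stood at 2.40, 1.57, 2.61 and 2.81 and at 3.91, 4.20 and 3.03. All 3 mdx/Runx1f/f-labelled libraries thus held more Myog and Myod1 per Pax7 count than any of the other 4. For Myod1 the gap was narrow, from 2.81 in mdx replicate 4 to 3.03 in mdx/Runx1f/f replicate 3. Those ratios rest on Pax7 raw counts of 129 and 105, so this gap may lie within counting noise. Among all genes, 8.68% did not overlap between the groups when divided by the Pax7 count. As a difference of group means of the log2 ratio, Myog per Pax7 was 1.01, with 1.18 among animals 358 to 363 and 0.78 among animals 373 to 375. Myod1 per Pax7 was 0.68, with 1.06 and 0.16.

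Myod1 per Myf5 count ran from 1.98 to 4.91 in the mdx-labelled libraries and from 6.49 to 7.59 in the others, where 23.2% of all genes divided by Myf5 did not overlap. Myf6 per Myog count was 3.66, 4.00, 2.79 and 3.75 against 1.06, 2.25 and 2.54, where 43.9% of all genes divided by Myog did not overlap. Each library labelled mdx/Runx1f/f held less Myf6 per Myog count than each labelled mdx, but such gaps were common among genes divided by Myog. Myf6 itself differed little between the groups, as given above. On the same log2 scale Myod1 per Myf5 was 1.12, with 1.75 among animals 358 to 363 and 0.43 among animals 373 to 375, and Myf6 per Myog was -0.95, with -1.31 and -0.35. Without mdx/Runx1f/f replicate 1, Myf6 per Myog was -0.56. Myog per Myod1 count overlapped, at 1.22 to 1.72 against 1.27 to 2.49, where 24.0% of all genes divided by Myod1 did not. The surface genes and Myf6 kept no such gap when divided by Pax7. Cdh15 per Pax7 count was 3.39 to 5.35 against 3.6 to 5.41, and Megf10 0.886 to 1.49 against 1.03 to 1.36. Vcam1 per Pax7 count was 1.16 to 3.05 against 2.34 to 3.83, Myf5 0.532 to 1.00 against 0.467 to 0.589, and Myf6 10.8 to 13.7 against 10.3 to 16.5.

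**Figure D3:**
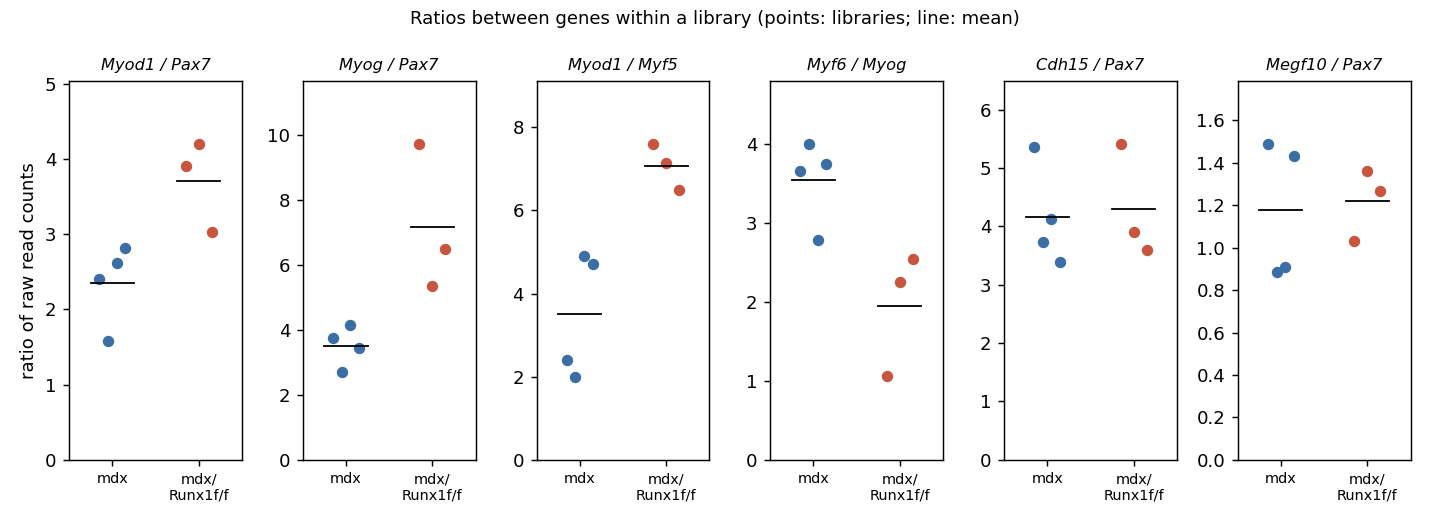
Ratios of raw counts within each library (points, with the group mean as a line) for 6 of the 10 pairs, for the 4 mdx-labelled libraries and the 3 labelled mdx/Runx1f/f, each vertical axis from 0. Myod1 and Myog per Pax7 count and Myod1 per Myf5 count are higher in every library labelled mdx/Runx1f/f, and Myf6 per Myog count is lower.

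Of the 8 genes, Myod1 and Myog were each the other's nearest in profile over the 7 libraries. Their root mean square difference was 0.345 in centred log2 CPM (counts scaled to the library total times its TMM normalisation factor). Pax7 and Myf6 were likewise each the other's nearest (0.211), and their profiles are flatter. Among 12143 candidate genes, Myod1 ranks 29th nearest to Myog and Myog 83rd nearest to Myod1. Myf6 ranks 147th nearest to Pax7 and Pax7 1298th nearest to Myf6. The nearest genes to Myog were Zic1 (0.157) and Stbd1 (0.236), and those to Myod1 were Fam83g (0.192) and Fbxl15 (0.218). Nearest to Pax7 were Nkain1 (0.105) and Sac3d1 (0.117), to Myf5 Tinf2 (0.0844) and C87436 (0.0889), and to Myf6 Cd38 (0.0539) and Tbcc (0.0630). Cdh15 was followed most closely by Dbndd1 (0.105) and Inha (0.107), Megf10 by Cox8a (0.0675) and Tpra1 (0.0797), and Vcam1 by Pyroxd2 (0.117) and BC026585 (0.122). Ranked by Pearson correlation instead, most of these nearest genes would be others. With 7 libraries such likeness is a description of these libraries.

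The partners and inhibitors of the myogenic factors were followed as a list, and 2 of its 17 tested genes rose and 0 fell (median log2 fold change 0.21), while DESeq2 called 4. Id2, a helix-loop-helix protein without a DNA-binding region that ties up the E protein partners of the myogenic factors, had 127, 94.0, 87.2 and 98.7 normalised counts in the mdx-labelled libraries and 248, 254 and 279.8 in the others. These groups are far apart, and the log2 fold change was 1.36 (SE 0.15; edgeR adjusted p = 0.00842). Each of the 7 fits without 1 library still called Id2, with adjusted p of 0.0153 to 0.0311. Twist1, a helix-loop-helix repressor of Myod1 activity, rose by 1.02 on the log2 scale (SE 0.19; edgeR adjusted p = 0.0269), and lost its call without mdx replicate 2 or 3 or without mdx/Runx1f/f replicate 2 or 3 (edgeR adjusted p up to 0.0733). The repressor Snai1 was not called, at 0.77 (edgeR adjusted p = 0.0607, DESeq2 adjusted p = 0.0258). Both Id2 and Twist1 are made by other cells of muscle as well, and the stromal sums above moved with the groups. Their part here was not tested.

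Of 13 tested factors that act upstream of or with the myogenic factors, 1 fell and 0 rose (median -0.26), while DESeq2 called 5. Six4, a homeobox factor that activates Myog, had 664, 707, 876 and 727 normalised counts in the mdx-labelled libraries and 393, 369 and 527 in the others, a log2 fold change of -0.78 with an SE of 0.15 (edgeR adjusted p = 0.0296). Each mdx/Runx1f/f-labelled library lay below each of the mdx-labelled ones. The call of Six4 was lost without any of mdx replicates 2 to 4 and mdx/Runx1f/f replicates 1 and 2 (adjusted p up to 0.0919). Barx2, a homeobox factor that acts with Pax7 and Myod1, was at -1.75 and was not called (edgeR adjusted p = 0.0599, DESeq2 adjusted p = 0.00190). Nor was Mef2d, a MADS-box factor that acts with the myogenic factors, at -0.32 (edgeR adjusted p = 0.0721, DESeq2 adjusted p = 0.00371).

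Of 18 tested genes of differentiation and fusion, 2 rose and 0 fell, DESeq2 called 6, and the median was 0.89. Boc, a cell surface protein that promotes myogenic differentiation, had 171, 204, 165 and 211 normalised counts in the mdx-labelled libraries and 308, 386 and 389 in the others, a log2 fold change of 0.95 with an SE of 0.14 (edgeR adjusted p = 0.0149). Its call was lost without mdx/Runx1f/f replicate 2 (edgeR adjusted p = 0.0532). The stromal sums above moved with the groups, and their part in the result for Boc was not tested. Mybph, a myosin-binding protein, had 360.3, 382, 306 and 151 against 2534, 463 and 1458 normalised counts, a log2 fold change of 2.32 with an SE of 0.54 (edgeR adjusted p = 0.0432), with the highest count in the library that also led for Myog. That call remained in 1 of the 7 fits without 1 library, the one without mdx/Runx1f/f replicate 2, with a log2 fold change of 1.68 to 2.75 over the 7. The actin of developing muscle, Actc1, was at 2.10 and was not called (edgeR adjusted p = 0.0615, DESeq2 adjusted p = 0.0195). Its highest library, mdx/Runx1f/f replicate 1, held 13147 normalised counts, and without it Actc1 was at 1.19.

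Niche ligands and receptors had 3 of 17 tested genes that rose and 0 that fell (median 0.29), while DESeq2 called 6. They were Igf1, a growth factor of muscle, at a log2 fold change of 1.00 with an SE of 0.18 (edgeR adjusted p = 0.0227), the receptor Notch2 at 0.79 (SE 0.15; adjusted p = 0.0269) and Mstn, myostatin, an inhibitor of muscle growth, at 2.78 (SE 0.66; adjusted p = 0.0468). Mstn counts were 44.4, 17.8, 29.8 and 32.6 in the mdx-labelled libraries and 459, 115 and 65.1 in the others, highest again in mdx/Runx1f/f replicate 1, and without that library its log2 fold change was 1.53. The call of Igf1 was lost without mdx/Runx1f/f replicates 2 or 3 (adjusted p up to 0.0614). That of Notch2 was lost without mdx replicates 2, 3 or 4 or mdx/Runx1f/f replicate 2 (up to 0.0882). That of Mstn was lost in every such fit but the one without mdx/Runx1f/f replicate 3 (up to 0.121). The stromal sums above moved with the groups, and their part in the results for these 3 genes was not tested.

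Among 9 adhesion partners of Cdh15 and Vcam1, 2 rose and 0 fell (median 0.32), while DESeq2 called 4. Itga4, the α4 chain of the integrin that binds Vcam1, had 171, 157, 72.9 and 99.7 normalised counts in the mdx-labelled libraries and 333, 534 and 255 in the others, a log2 fold change of 1.59 with an SE of 0.34 (edgeR adjusted p = 0.0352). Itga9, whose product also binds Vcam1, was at 1.20 (SE 0.27; adjusted p = 0.0405) and Itgb7, the other partner chain of α4, at 1.37 and not called (adjusted p = 0.0692, DESeq2 adjusted p = 0.0122). For both Itga4 and Vcam1 each library labelled mdx/Runx1f/f lay above each library labelled mdx. The calls of Itga4 and Itga9 each remained in 2 of the 7 fits without 1 library: for Itga4 those without mdx replicate 1 and without mdx/Runx1f/f replicate 3 (adjusted p up to 0.111 in the rest), for Itga9 those without mdx/Runx1f/f replicates 1 and 3 (up to 0.106). Itga9 moved most without mdx/Runx1f/f replicate 3, to 0.72. Leukocytes carry these integrins too. The macrophage genes given above had a median log2 fold change of 1.61, and their sums overlapped through mdx replicate 1 and mdx/Runx1f/f replicate 3 alone. The part of leukocytes here was not tested.

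Satellite cell surface and quiescence genes gave 0 calls of 16 tested by edgeR and 0 by limma-voom, with 7 at an unadjusted p below 0.05 and 7 called by DESeq2 (median 0.08). The smallest p were those of the heparan sulphate proteoglycan gene Sdc3 (log2 fold change 0.73, edgeR adjusted p = 0.0510), Chrdl2 (-1.52, adjusted p = 0.0664) and the receptor gene Notch3 (0.47, adjusted p = 0.0673). Genes of proliferation gave 0 calls of 16 by edgeR and 0 by limma-voom, with 6 at an unadjusted p below 0.05 and 3 called by DESeq2, and the median was 1.40. Plk1, Cdk1 and Mki67, all of dividing cells of any type, had log2 fold changes of 1.69, 1.66 and 1.43 (edgeR adjusted p = 0.0979, 0.115 and 0.137). Their highest library was mdx/Runx1f/f replicate 2, which is not the highest for any of the 8 genes. Without it they were at 0.78, 0.70 and 0.70.

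**Figure D4:**
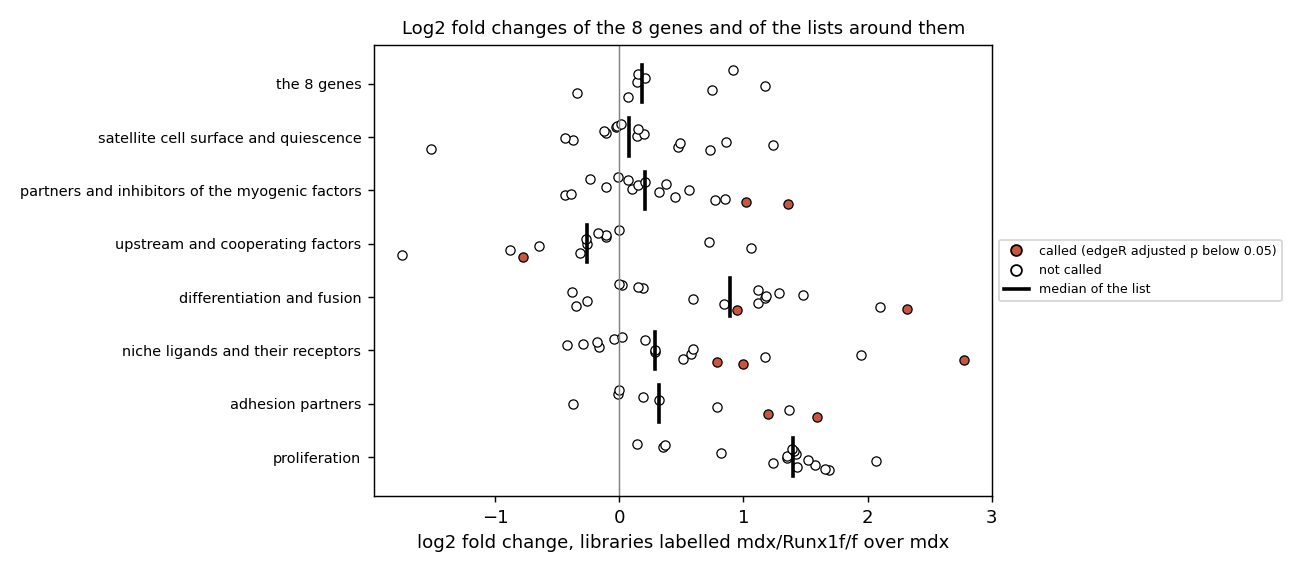
Log2 fold change, mdx/Runx1f/f against mdx, of each tested gene of the lists described (points), with genes called by edgeR filled, the others open, and the median of each list as a line. The list medians run from -0.26 for upstream factors to 1.40 for proliferation genes, beside 0.18 for the 8 genes.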

How the data were processed

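The authors deposited 1 table of raw read counts per gene, made with TopHat2 2.0.10 and HTSeq on mm9, per the submitters' processing notes. Per the file headers it also holds a signal per gene and library, which the authors normalised by dividing each count by a library constant, the authors' log2 fold change and their p-value with its adjusted p-value, named as in DESeq2 (1.6.3 in the same notes). Annotation and strand setting: not given in the sources used here; genes with overlapping partners are uncertain. Groups came from the sample titles, which name 7 animals. Every pair of libraries differed beyond sampling noise (lowest chi-square 15.9 per degree of freedom).

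Counts were fitted with edgeR 4.0.16 (R 4.3.3; TMM, filterByExpr, quasi-likelihood test, group as the only term, all 7 libraries) and adjusted by Benjamini-Hochberg over 14033 genes, which hold 99.9% of counts. Genes were called at an adjusted p below 0.05. Log2 CPM used a prior count of 2. DESeq2 1.42.0, limma-voom (limma 3.58.1), other scalings and filters, a replicate block, a number-series term and fits without each library were alternatives. Tested on simulated data for this comparison (14033 genes, 200 changed), the fit recovered 50% of the 2-fold and 86% of the 4-fold changes, with 6.21% of its calls false.

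Genes named are the 8, Runx1, up to 3 genes with the smallest p of each of 7 related lists, the 2 nearest profiles of each of the 8 (mean normalised count of at least 20) and up to 2 abundant genes of a marker list. Vwf and Myh2 were named after their values were seen. The genes and lists were chosen with earlier results of these data known. From the list of upstream factors 1 gene is not reported here. Lengths are merged exons of GENCODE M21. Of the other marker lists, 0 of 8 smooth muscle and pericyte, 2 of 6 Schwann cell and 1 of 1 T cell genes tested rose. Of neutrophil genes tested 0 of 2 rose, of adipocyte genes 3 of 4 and of tendon genes 0 of 4. No gene of these lists fell. The T cell list held 6 genes and rests on Cd4 alone. Cd3e, Cd3d, Cd3g and Cd8a had too few reads to be tested, and Trac was not found.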

Additional observations from a re-analysis of the deposited data

Results flagged for a closer look

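Of 30 genes examined in the 4 mdx-labelled libraries, 1 had a library far from the other 3, where chance does this in about 1 of 20 groups. Sdc3 had 681 normalised counts in mdx replicate 3, where the next lowest library had 1003, a gap of 0.921 of the group's range. The 8 satellite cell and myogenic genes had no such library in that group, and the group of 3 is too small for this rule.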

How the results depend on the processing

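Of the 8 genes, edgeR called 0 higher and 0 lower, DESeq2 called 2 higher, the fit with the animal number series as a term 1, and the fits without 1 library 0 to 1 (0 lower in each). Over all genes, 715 higher and 260 lower became 1491 and 905 by DESeq2, 1246 and 582 with the number-series term, 0 and 0 for animals 358 to 363 alone, 1361 and 440 for animals 373 to 375 alone (where the lone library labelled mdx/Runx1f/f is assumed to vary like the others) and 5 and 3 with columns joined through the description field. Library totals alone as scaling gave 131 lower, and leaving out 1 library gave 173 to 641 higher and 17 to 209 lower genes. The cause was not tested.

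The replicate block, by the number in the titles, gave 240 higher and 80 lower genes and called none of the 8. Correlations of same-numbered libraries' deviations were -0.007, 0.241 and 0.275, and not every library correlated best with its own number, so the numbers were not taken to pair the libraries.

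Signs turned within animals 373 to 375 for Pax7 (-0.31), Myod1 (-0.14), Cdh15 (-0.38) and Megf10 (-0.17), and on leaving out 1 library for Pax7 (-0.12 to 0.19) and Cdh15 (-0.22 to 0.40). With the description field, which sets other animals against each other, log2 fold changes were Myod1 -0.09, Myog -0.28, Cdh15 -0.24, Vcam1 -0.83, Runx1 -0.80, Sdc3 -0.49, Chrdl2 0.84, Id2 -0.22, Snai1 -0.03, Six4 0.41, Barx2 0.66, Mef2d 0.08, Boc -0.07, Mybph -0.56, Actc1 -0.57, Igf1 -0.06, Notch2 -0.43, Mstn -1.91, Itga4 -1.07, Itgb7 -0.88, Plk1 -1.51, Cdk1 -1.62 and Mki67 -1.16. With the description field the log2 ratios were 0.00 for Myod1 per Pax7, -0.08 for Myog per Pax7, 0.41 for Myod1 per Myf5 and 0.30 for Myf6 per Myog. Myf5 and Myf6 kept their sign in every alternative run. A filter of 10 CPM leaves out Pax7, Myf5 and Megf10. Depth limits the genes with few reads: Pax7 and Myf5 rest on 49 to 167 raw counts per library.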
